A study of Mus musculus with 8 samples.

Results

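The MHC class II genes of HPC-7 cells were examined for the chromatin contacts of their promoters. The 10 genes were taken by name: the coactivator gene Ciita, the invariant chain gene Cd74, the antigen-presenting chain genes H2-Aa, H2-Ab1 and H2-Eb1, the peptide exchange genes H2-DMa, H2-DMb1 and H2-DMb2, and the modulator genes H2-Oa and H2-Ob. Below, class II genes means these 10, and H2-Ea and H2-Eb2 of the same family were not among them. The loops of the 10 genes were chosen by position. Loops are pairs of 5 kb bins whose contacts exceed the caller's expectation at a q-value under 0.01, and a loop was taken when 1 of its bins held the canonical start site of a class II gene (GENCODE, build GRCm39). This gave 134 distinct loops of the 214313 in the 4 deposited lists, and 10 genes of 21738 protein-coding genes. The choice rests on listed loops, so that the presence of loops at these genes is no finding in itself.

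The contacts were measured by H3K27ac HiChIP. Fixed and digested chromatin was pulled down through H3K27ac, a mark of active regulatory DNA, and neighbouring DNA fragments in it were then ligated. HPC-7 is a mouse haematopoietic progenitor line grown with stem cell factor. The cells carried an added isoform of the transcription factor CEBPA, either the full-length p42 or the shorter p30, in both cases from a retroviral vector with a GFP marker. The study's methods describe ERT2 fusions that enter the nucleus with 4-hydroxytamoxifen, in cells sorted for GFP, as well as constitutive forms, and do not say which was used for HiChIP. Both lines were thus stable transductions of 1 parental line. Cells of each line were untreated (UT) or were treated with LPS, a bacterial lipopolysaccharide, at 100 ng/mL for 2 h. Each of the 4 groups had 2 replicates, 8 libraries in all, and no group without added CEBPA was included here.

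MHC class II molecules are cell surface dimers of an alpha and a beta chain that present peptides to CD4+ T cells. The invariant chain occupies the new dimer, H2-DM exchanges its remnant for antigenic peptides, and H2-DO, made of the H2-Oa and H2-Ob products, modulates H2-DM. Their promoters share an upstream module of X and Y boxes, bound by RFX and NF-Y, at which CIITA acts as coactivator; B cells, dendritic cells and activated macrophages are known for high expression. No RNA was measured in these libraries, and contacts and H3K27ac coverage are not read as expression here. The study sequenced RNA of HPC-7 cells with p30 or p42 in other samples, which were not used here. It reports higher transcription of genes whose interactions were stronger in p30 cells, and the reverse.

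Because 1 list was deposited for the 2 replicates of a group, no spread between replicates was known and no test was made. The lists are called pooled here, although how the replicates were combined is not stated. Each difference compares those lists and not the conditions. The lists held 80489 loops in untreated and 94609 in LPS-treated p30 cells, and 158233 and 78591 in p42 cells, from 14503330 to 18999991 modelled contacts. The p42 list after LPS had 0.497 times the length of that before it, the widest gap among the lists, and numbers of class II loops are therefore given beside those of all genes. All 10 progenitor marker genes, among them Kit, Gata2 and Runx1, had a promoter loop in every list, as did 1 of 6 B cell, 2 of 6 dendritic cell and 2 of 6 macrophage markers and 6331 of all 21738 genes. In any list the numbers were 3, 3 and 5 of 6, against 10513 of all genes.

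The promoters of 8 class II genes lie together on chromosome 17, and their Y boxes are shown first because 7 of these 8 share them and all later measurements refer to the bins that hold them. The sequences are those of build GRCm39, 5′ to 3′ on the strand of each gene, from 38 bases before the first ATTGG near the start site to the end of that motif. Capitals mark the matches to ATTGG (the Y box, the reverse complement of CCAAT), and to GCAAC and TGATG, letters found in X boxes, which overlap in H2-Eb1 and H2-DMa.
H2-Aa: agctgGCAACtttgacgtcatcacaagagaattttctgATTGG
H2-Ab1: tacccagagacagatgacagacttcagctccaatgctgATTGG
H2-Eb1: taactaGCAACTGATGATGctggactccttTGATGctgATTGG
H2-DMa: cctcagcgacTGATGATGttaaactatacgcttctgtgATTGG
H2-DMb2: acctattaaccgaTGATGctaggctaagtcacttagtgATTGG
H2-Oa: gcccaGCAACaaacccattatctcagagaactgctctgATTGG
H2-Ob: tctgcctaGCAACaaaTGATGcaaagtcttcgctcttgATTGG
These windows lie at chr17:34506841-34506883 on the minus strand for H2-Aa, and on the plus strand at chr17:34482118-34482160 for H2-Ab1, chr17:34524744-34524786 for H2-Eb1, chr17:34354483-34354525 for H2-DMa, chr17:34364095-34364137 for H2-DMb2, chr17:34311272-34311314 for H2-Oa and chr17:34457784-34457826 for H2-Ob. GCAAC began 33 bases before ATTGG in H2-Aa and H2-Oa, 32 bases before it in H2-Eb1 and 30 bases before it in H2-Ob. The TGATG nearest to ATTGG began 25 bases before it in H2-DMa and H2-DMb2, 22 in H2-Ob and 8 in H2-Eb1, and H2-DMa and H2-Eb1 hold further matches upstream of it. The letters and their spacing were chosen after the sequences had been seen.

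In windows from 250 bases before to 50 bases after the start site, CCAAT on either strand was found in 7 of 9 class II promoters and in 39.9% of all 21738 promoters. The 9 promoters are those other than that of Cd74, which was not searched. GCAAC or TGATG starting at most 40 bases before ATTGG on the gene's strand was found in 6 of the 9 and in 1.70% of all promoters. The stricter letters were rarer among the 9: GCAACNG on either strand matched H2-Eb1 alone (11.4% of all promoters), and GCAACAG matched none of them (4.28%). TGACGTCA, a site of CREB factors that lies within the H2-Aa window above, matched H2-Aa alone (2.45% of all promoters), as did the looser TGACGNNA (8.09%) and TGANNTCA (13.3%). The CEBP letters TTGCNNAA or TTNNGCAA on either strand were in none of the 9 (10.7% of all promoters), and the AP-1 letters TGANTCA were in none (7.15%). GGAAG, the core of ETS sites, was in 5 of the 9 and in 71.9% of all promoters. Neither a match nor its absence shows whether a factor is bound.

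The loops of the class II genes numbered 66 in untreated and 72 in LPS-treated p30 cells, and 97 and 43 in p42 cells. They held 1962, 1864, 2926 and 1166 contacts in the same order, and a median of 4.58, 4.52, 4.50 and 4.12 times the expected contacts. The weakest of them had 10, 10, 8 and 10 contacts, and the longest spanned 145, 145, 175 and 110 kb. Start sites with at least 1 loop were 8, 8, 9 and 9 of 10.

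**Figure D1:**
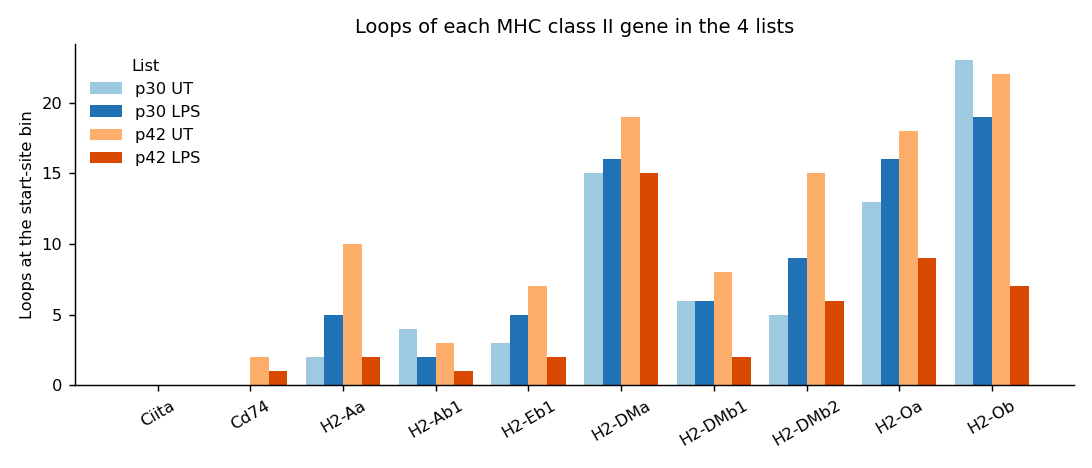
Number of loops (vertical axis) whose bins hold the start site of each class II gene (horizontal axis), with 1 bar for each of the 4 pooled lists. H2-Ob had 23, 19, 22 and 7 loops, H2-DMa had 15, 16, 19 and 15, and Ciita had 0 in each.

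Ciita, the coactivator on which class II transcription depends, had no loop at its start site (chr16:10305001-10310000) in any list, nor at the start sites of its other transcripts. The bin was not listed, so that its coverage is unknown. Near the 3′ end of the gene, a loop from chr16:10340001-10345000 was listed in both LPS lists, with 27 contacts in p30 and 31 in p42, and in neither untreated list. Cd74, the invariant chain gene on chromosome 18, had no start-site loop in p30, and 2 in UT and 1 after LPS in p42. The partners of Cd74 were the bins of the Tcof1 start site (10 contacts) and of Camk2a exons (8 contacts) in p42 UT, and that of the Rps14 start site (17 contacts) in p42 LPS. With the bins on either side included, the start of Cd74 had 2, 2, 2 and 4 loops in p30 UT and LPS and in p42 UT and LPS, in that order. The difference between p30 and p42 at Cd74 was thus absent in untreated cells with a wider window.

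The genes of the presented dimer had 1 to 10 loops, where the median gene with a promoter loop had 3, 3, 5 and 3 in p30 UT and LPS and in p42 UT and LPS. H2-Aa, the alpha chain gene of the I-A molecule, had 2 loops in untreated and 5 in LPS-treated p30 cells, and 10 and 2 in p42 cells. H2-Ab1, its beta chain gene, had 4, 2, 3 and 1 loops in the same order, and it was the only class II start site on chromosome 17 in a bin without an H3K27ac peak. H2-Eb1, the beta chain gene of I-E, had 3, 5, 7 and 2 loops. In lists cut to equal size by q-value H2-Aa had 2, 5, 3 and 2 loops, so that most of its loops in p42 UT were of weaker significance. No loop of H2-Aa was in all 4 lists. The loop of H2-Ab1 in all 4 lists led 85 kb onward to chr17:34565001-34570000, between H2-Ea and Btnl2 and over an exon of a long non-coding RNA, with 15, 12, 12 and 12 contacts. That of H2-Eb1 led to the intronic bin chr17:34510001-34515000, which is also the neighbour of the H2-Aa start bin, with 72, 45, 51 and 39 contacts.

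H2-DMa, the alpha chain gene of H2-DM, had 15 loops in untreated and 16 in LPS-treated p30 cells, and 19 and 15 in p42 cells, the smallest spread in proportion to its number. Its largest ratio of observed to expected contacts was to chr17:34380001-34385000, 30 kb onward and over no annotated gene. That loop of H2-DMa had 63 contacts in p30 UT (10.6 times the expected), 53 in p30 LPS (11.4), and, in p42 cells, 88 without LPS (14.5) and 56 with it (11.4). The ratio was the highest of all class II loops in each list. The loop of H2-DMa with the most contacts, 161, 188, 187 and 120, led 10 kb back to chr17:34340001-34345000, which holds exons of Brd2, a bromodomain protein gene, and of other H2-DMa transcripts.

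H2-DMb2 had 5, 9, 15 and 6 loops, and H2-DMb1 had 6, 6, 8 and 2, in p30 UT and LPS and in p42 UT and LPS, in that order. Both encode beta chains of H2-DM. Of the 7159 bases of H2-DMb1, 84.0% aligned to H2-DMb2 with 92.7% identity and with identical runs of up to 264 bases, so that reads could be assigned to the wrong copy or lost in mapping. The start sites of these genes were joined by a loop in all 4 lists, with 62, 51, 91 and 54 contacts at 2.26, 2.34, 2.91 and 2.48 times the expected, and this loop is open to the same limit.

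H2-Oa, the alpha chain gene of H2-DO, had 13 loops in untreated and 16 in LPS-treated p30 cells, and 18 and 9 in p42 cells. H2-Oa had 6 loops in all 4 lists. Among these were partners at the start sites of Slc39a7 and Rxrb, 60 kb back (21, 16, 33 and 21 contacts), and at that of Brd2, 25 kb onward (44, 37, 60 and 34 contacts). H2-Ob, the beta chain gene of H2-DO, had 23 loops in untreated and 19 in LPS-treated p30 cells, and 22 and 7 in p42 cells. In p30 UT, 48 of the 8093 genes with a promoter loop had as many or more (0.593%). That share was 2.62% after LPS, and in p42 it was 3.48% in untreated cells and 20.5% after LPS. H2-Ob was thus among the genes with the most loops in 3 of the 4 lists, and H2-DMa and H2-Oa ranked high as well. In the same order of lists, the share was 3.19%, 4.89%, 5.67% and 3.24% for H2-DMa and 5.20%, 4.89%, 6.72% and 12.7% for H2-Oa. With the start sites of all transcripts, H2-DMa had 62, 78, 85 and 54 loops, more than H2-Ob with 54, 50, 55 and 32.

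**Figure D2:**
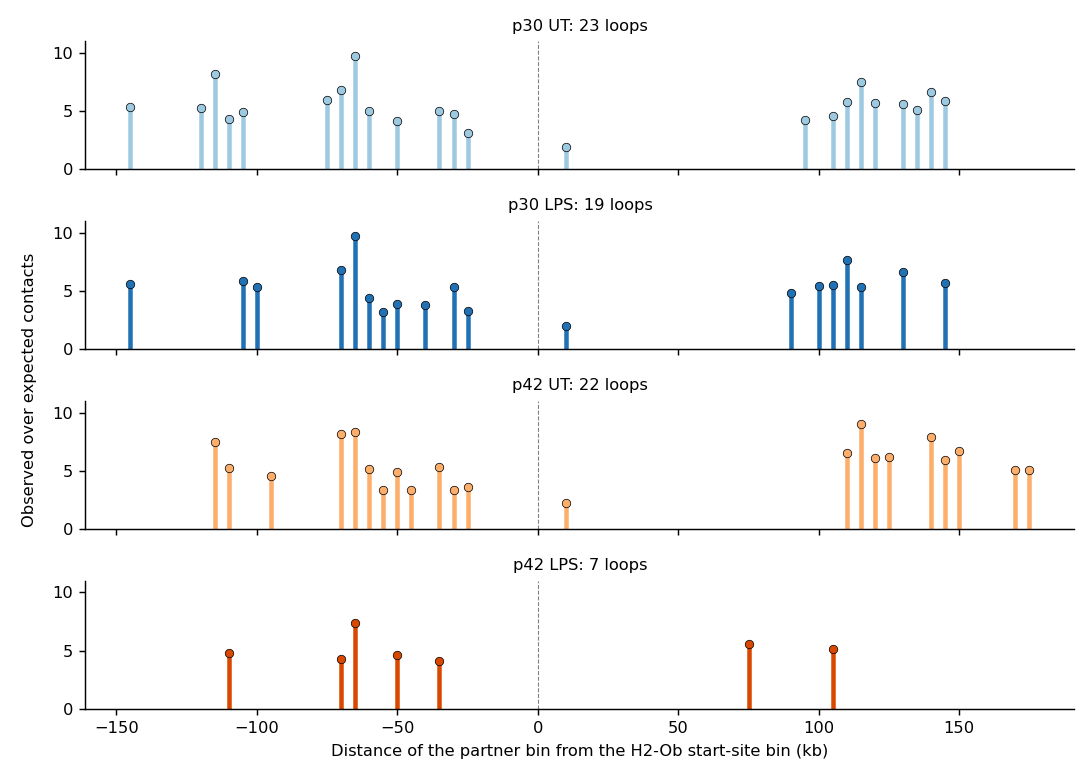
Observed over expected contacts (vertical axis) of each H2-Ob loop by the distance in kb of its partner bin (horizontal axis), in 1 panel for each list. Partners lay on both sides in all 4 lists, and 23, 19, 22 and 7 loops were listed in p30 UT and LPS and in p42 UT and LPS, in that order.

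H2-Ob partners lay on both sides of its start site. On the side of lower coordinates H2-Ob had 13, 11, 12 and 5 loops, and on that of higher coordinates 10, 8, 10 and 2. Loops of H2-Ob in all 4 lists led to chr17:34385001-34390000 (30, 24, 37 and 14 contacts), to chr17:34390001-34395000 (31, 24, 24 and 17 contacts) and to the shared start-site bin of Tap1 and Psmb9 (19, 13, 19 and 14 contacts), genes of the peptide supply for MHC class I. The loop to chr17:34390001-34395000, 65 kb back and over no annotated gene, had 9.75 times the expected contacts in untreated and 9.69 in LPS-treated p30 cells, and 8.30 and 7.35 in p42 cells. On the other side, the loop of H2-Ob to the start-site bin of Btnl2, a butyrophilin-like gene, had 17, 10 and 19 contacts in p30 UT, p30 LPS and p42 UT and was not listed in p42 LPS. Contacts in all listed H2-Ob loops came to 27.5, 22.6, 24.4 and 5.81 per 1000000 modelled contacts. The p42 LPS list had the fewest H2-Ob loops and the fewest contacts in them, although single loops such as that to Tap1 and Psmb9 had their lowest number in p30 LPS. Where a pair is not listed, its contacts are unknown and not 0.

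The partner bins of the class II genes fell into separate sets. On chromosome 17 there were 56 partner bins that held no class II start site of the 8. H2-Oa and the H2-DM genes contacted 28 of them, and H2-Aa, H2-Ab1 and H2-Eb1 contacted 16, with 0 in common. H2-Ob, whose start site lies between both groups of genes, contacted 9 bins of the former set, 11 of the latter and 12 that none of the other 7 genes contacted. No loop of the other 7 genes passed over the H2-Ob bin in any list. Within chr17:34240001-34640000, loops of any kind that passed over the H2-Ob bin were 9 of 265 before and 13 of 304 after LPS in p30, and 20 of 402 and 6 of 198 in p42. The genes on either side are also farther from each other's partners than H2-Ob is, and the part of distance in this was not tested.

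**Figure D3:**
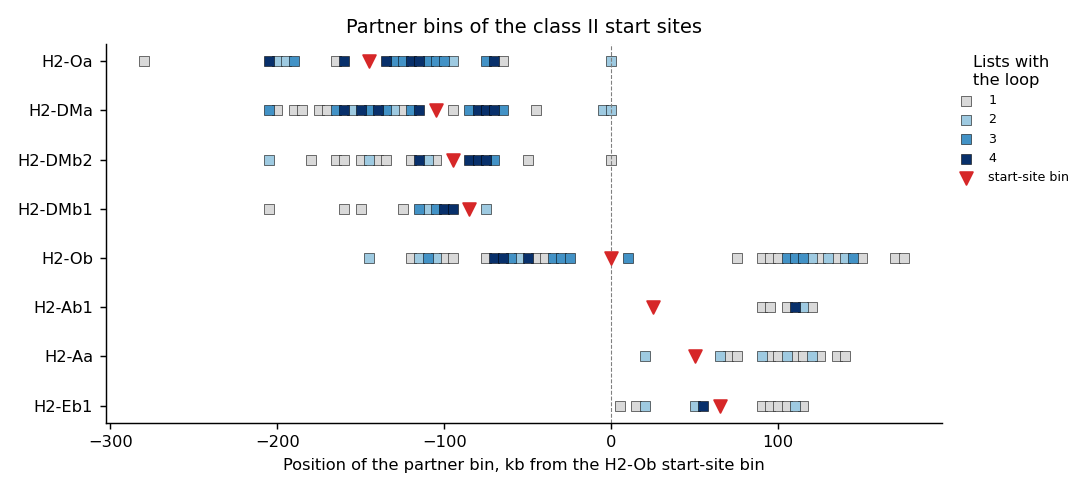
Position of each partner bin in kb from the H2-Ob start-site bin (horizontal axis) for the 8 class II genes on chromosome 17 (rows), with darker squares for loops in more of the 4 lists and triangles for the gene's own start-site bin. The 28 bins of H2-Oa and the H2-DM genes and the 16 of H2-Aa, H2-Ab1 and H2-Eb1 do not coincide, and H2-Ob partners lie in both.

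Partner bins were shared within a set, whose start sites lie near each other. How often other neighbouring genes share partner bins was not counted, so these numbers are a description only. Of 59 partner bins that held no start site of the 10 genes, Cd74 partners included, 32 were contacted by 2 or more of the genes and 12 by 4 or more. The bins chr17:34340001-34345000 and chr17:34380001-34385000 were each contacted by H2-Oa, H2-Ob, H2-DMa, H2-DMb1 and H2-DMb2. For the classical genes and H2-Ob, the bins with 4 of the genes held H2-Eb2, H2-Ea, the bin next to H2-Ea, and Btnl2. A protein-coding start site was in 11 of the 59 bins, and 14 of them overlapped no protein-coding gene.

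Loops between class II start sites joined 9 of the 28 possible pairs on chromosome 17, with 5 in untreated and 6 in LPS-treated p30 cells, and 7 and 2 in p42 cells. H2-Oa and H2-Ob, the genes of the H2-DO dimer, were joined over 145 kb in both p30 lists, with 11 contacts in UT (5.33 times the expected) and 10 after LPS (5.61), and in neither p42 list. H2-DMa and H2-Ob were likewise joined in both p30 lists, with 12 contacts each. The H2-Aa and H2-Eb1 start sites were joined in both p42 lists, with 29 contacts in UT (2.70 times the expected) and 25 after LPS (3.01), and in neither p30 list. The bin next to the H2-Aa start bin was joined to H2-Eb1 in all 4 lists, with 72 and 45 contacts in p30 UT and LPS and 51 and 39 in p42. The difference between the isoforms at this pair thus depended on the choice of bin. H2-Oa with H2-DMa had 25 contacts in p30 UT, 25 in p30 LPS and 30 in p42 UT, and H2-DMa with H2-DMb1 had 25, 25 and 40. Of the rest, H2-Oa with H2-DMb2 had 13 contacts in p30 LPS and 15 in p42 UT, H2-DMa with H2-DMb2 had 67 in p42 UT, and H2-DMb2 with H2-Ob had 11 in p42 UT. Loops of 10 to 13 contacts lie near the smallest number listed, so that presence in 1 list and absence from another can rest on few contacts.

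The isoforms were compared within each treatment. In untreated cells, 7 of the 9 class II genes with a loop in either list had the larger number in p42, where 81.9% of all genes did, and H2-Ab1 and H2-Ob had fewer. After LPS, 8 of 9 had fewer loops in p42, where 58.7% of all genes did, and Cd74 had more. The total of class II loops in p42 was 1.47 times that in p30 in UT, against 1.97 for the list lengths, and 0.597 times after LPS, against 0.831. In lists of equal size the totals were 63 in untreated and 61 in LPS-treated p30 cells, and 59 and 43 in p42 cells, and H2-Ob then had 23, 17, 13 and 7 loops. The untreated total was then lower in p42 than in p30, with 4 genes higher (41.8% of all genes), 2 lower (37.7%) and 2 equal, so that its direction turned with this setting. The number of H2-Ob loops in lists of equal size was known before these genes were chosen and is given as a description.

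LPS was compared with UT in each line, in comparisons that share their lists with those of the isoforms. In p30, 5 of the 8 class II genes with loops had more after LPS, where 53.1% of all genes did, and H2-Ab1 and H2-Ob had fewer. In p42, 9 of 9 had fewer loops after LPS, where 87.3% of all genes did. The ratio of the totals was 1.09 in p30 (list lengths 1.18) and 0.443 in p42 (list lengths 0.497). None of these shares was tested. In lists of equal size, 6 of the 9 genes had fewer loops after LPS in p42 (46.4% of all genes), 2 had more (31.8%) and 1 had as many. The p30 total was then lower after LPS than before it, so that the direction for LPS in p30 changed with this setting. Between the isoforms after LPS, 5 of the 9 genes had fewer loops in p42 at equal size, against 46.7% of all genes.

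Shared loops were counted by identical bins. In UT, p30 and p42 shared 47 class II loops, 71.2% of those in p30 and 48.5% of those in p42, against 73.4% and 37.3% over all loops. After LPS they shared 31, 43.1% of p30 and 72.1% of p42, against 48.7% and 58.7%. The p30 lists shared 45, 68.2% of UT and 62.5% of LPS, against 58.4% and 49.7% over all loops. The p42 lists shared 33, 34.0% of UT and 76.7% of LPS, against 37.8% and 76.1%. Class II loops in all 4 lists were 23 of 134 (17.2%, against 14.5% of all loops), and 61 were in 1 list (45.5%, against 50.5%). With bins allowed to shift by 1, shared loops rose from 57.7% to 79.1% of the loops of both lists for the isoforms in UT, from 53.9% to 77.4% after LPS, from 65.2% to 84.1% for LPS in p30 and from 47.1% to 67.1% for LPS in p42. Over all loops the same shares rose from 49.5% to 79.1%, from 53.2% to 82.7%, from 53.7% to 83.2% and from 50.5% to 80.1%.

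The 23 loops in all 4 lists held 1069 contacts in untreated and 919 in LPS-treated p30 cells, and 1256 and 797 in p42 cells. The share from p42 was 54.0% in UT (exact Clopper-Pearson interval 52.0 to 56.1, counting error only), where the modelled contacts alone give 51.4%. After LPS it was 46.4% (44.1 to 48.8), where the modelled contacts give 52.2% and the caller's expected counts 48.1%. Per modelled contact, p42 over p30 was 0.15 in UT and −0.33 after LPS on the log2 scale, and the median of single loops was 0.12 and −0.21, against 0.31 and −0.18 over the 31032 loops in all 4 lists. LPS over UT was 0.09 in p30 and −0.39 in p42 on this scale, with medians of single loops of 0.03 and −0.41 against 0.25 and −0.24. By the expected counts, which follow the coverage of the bins, the sum after LPS for p42 over p30 was −0.09.

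Coverage, the number of reads per 5 kb bin, was compared next because it carries the H3K27ac enrichment itself. All bins have the same length, but reads can be lost or misplaced in mapping. This limits the levels given below for H2-DMb1 and H2-DMb2 and their place among the other genes. H2-Ob had 6726 reads in untreated and 4675 in LPS-treated p30 cells, and 5207 and 2466 in p42 cells. H2-Oa had 6209, 5512, 5770 and 3326, and H2-DMa had 4706, 4374, 5334 and 3549. H2-Ob was thus the highest class II gene in untreated p30 cells and the second after LPS, and the third and the fourth in p42 cells. In p42 UT the Poisson intervals of H2-Ob (5067 to 5350) and H2-DMa (5192 to 5479) overlapped, as did those of H2-Ob and H2-DMb2 (4873 to 5152), and in p42 LPS those of H2-Ob (2370 to 2565) and H2-DMb2 (2565 to 2768) did so.

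Of the other genes, H2-DMb2 alone exceeded H2-Ob in a list, that of p42 LPS. H2-DMb2 had 3883 reads in untreated and 3092 in LPS-treated p30 cells, and 5011 and 2665 in p42 cells, and H2-DMb1 had 2576, 2201, 2933 and 1902. H2-Aa had 3098, 2944, 3075 and 1909, H2-Eb1 had 2589, 2468, 2350 and 1594, and H2-Ab1 had 2258, 1865, 2174 and 1565. Cd74 was listed in p42 alone, with 1777 reads in UT and 1150 after LPS. H2-Ab1 was the lowest of the 8 genes on chromosome 17 in every list, with intervals that overlapped those of H2-Eb1 in both p42 lists. The median start-site bin among the 5607 listed in all 4 lists had 3789, 3665, 4910 and 2963 reads. Relative to it, H2-Ob stood at 1.78, 1.28, 1.06 and 0.832, H2-Oa between 1.12 and 1.64, and H2-DMa at 1.24, 1.19, 1.09 and 1.20. H2-Aa, H2-Ab1, H2-Eb1 and H2-DMb1 lay between 0.443 and 0.818 in all lists.

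**Figure D4:**
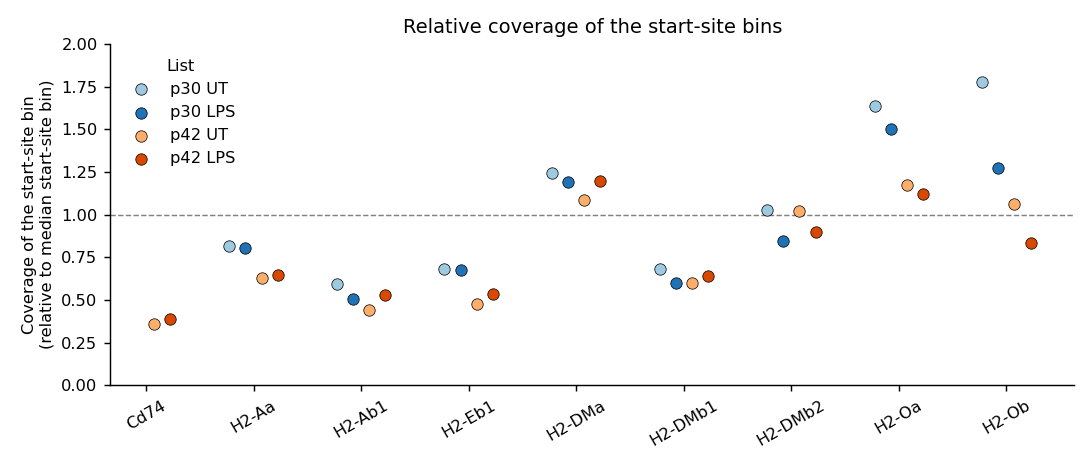
Coverage of the start-site bin of each class II gene (horizontal axis) as a multiple of the median start-site bin of the same list (vertical axis, dashed line at 1), with 1 point for each list in which the bin was listed. H2-Ob lies at 1.78, 1.28, 1.06 and 0.832 in p30 UT and LPS and in p42 UT and LPS, in that order, the widest range among these genes.

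Between the isoforms, the coverage ratio was taken relative to the median ratio over all start-site bins listed in both lists, which was 0.34 in UT and −0.32 after LPS on the log2 scale. H2-Ob was lower in p42 than in p30 by 1.63-fold in UT (log2 −0.71) and by 1.52-fold after LPS (log2 −0.60). It was the only class II gene past a 1.5-fold difference, 1 of 8 in each comparison, where 2.12% of all genes were at least 1.5-fold lower in UT and 1.17% after LPS. As low as H2-Ob or lower were 68 of 7705 genes in UT and 68 of 6913 after LPS. With the neighbouring bins included, H2-Ob had −0.56 in UT and −0.42 after LPS, and relative to the rest of the class II region it had −0.49 and −0.52, so that it was under the 1.5-fold mark in both comparisons with either setting. Relative to modelled contacts, a scale that moves all genes alike, H2-Ob had −0.45 in UT, also under the mark, and −1.05 after LPS. Its direction was the same in all of these, and its size depended on the reference.

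In UT the other 7 genes ranged from −0.48 at H2-Eb1 to 0.03 at H2-DMb2, and the median of the 8 was −0.37. H2-Oa (−0.44), H2-Ab1 (−0.39) and H2-Aa (−0.35) lay below the H2-DM genes H2-DMa (−0.16) and H2-DMb1 (−0.15). After LPS the median was −0.14, with H2-Oa at −0.41, H2-Eb1 at −0.31 and H2-Aa at −0.30, while H2-Ab1 (0.07), H2-DMa (0.02), H2-DMb1 (0.11) and H2-DMb2 (0.11) lay above 0. Relative to modelled contacts the H2-DM genes lay above 0 in UT, at 0.10 for H2-DMa, 0.11 for H2-DMb1 and 0.29 for H2-DMb2, and below 0 after LPS. That scale moves all genes alike, with a median over all start-site bins of 0.26 in UT and −0.45 after LPS, so that the sign says nothing particular about these genes. On it no class II gene was lower by 1.5-fold in UT (0.311% of all genes), and 4 of 8 were after LPS (29.4% of all genes).

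Between LPS and UT, no class II gene passed 1.5-fold in either line, where 0.458% of all genes were at least 1.5-fold lower in p30 and 0.364% in p42. H2-Ob had the lowest ratio in both, −0.46 in p30, where 139 of 7202 genes were as low or lower, and −0.35 in p42, where 220 of 7419 were. In p30 the median of the 8 genes on chromosome 17 was −0.14 and all 8 lay below 0, from −0.46 to −0.01. In p42 the median was 0.07, H2-Ab1 (0.25) was highest, and H2-DMb2 (−0.19) and H2-Oa (−0.07) were the others below 0. Relative to modelled contacts these medians were 0.11 in p30 and −0.39 in p42, where those of all start-site bins were 0.25 and −0.46. On that scale 2 of the 8 genes, H2-Ob (−0.82) and H2-DMb2 (−0.65), were lower by 1.5-fold in p42, as were 24.0% of all genes.

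Bins of the same region were set beside H2-Ob to show how local its coverage ratio was. Of 68 bins in chr17:34240001-34640000 that were in all 4 lists, that of the H2-Ob start site (chr17:34455001-34460000) had the lowest ratio of p42 over p30 in UT and after LPS. The median of the 68 bins was −0.25 in UT, with 65 below 0, and −0.02 after LPS, with 38 below 0. The next bin of the H2-Ob gene, chr17:34460001-34465000, had 7378, 4978, 6108 and 3262 reads and ratios of −0.61 and −0.29. The bin before the start site had −0.28 and −0.13 with fewer reads, 1792, 1514, 1859 and 1104. The low ratio thus lay over the start of H2-Ob and the bin after it in UT, and mostly over the start bin after LPS.

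**Figure D5:**
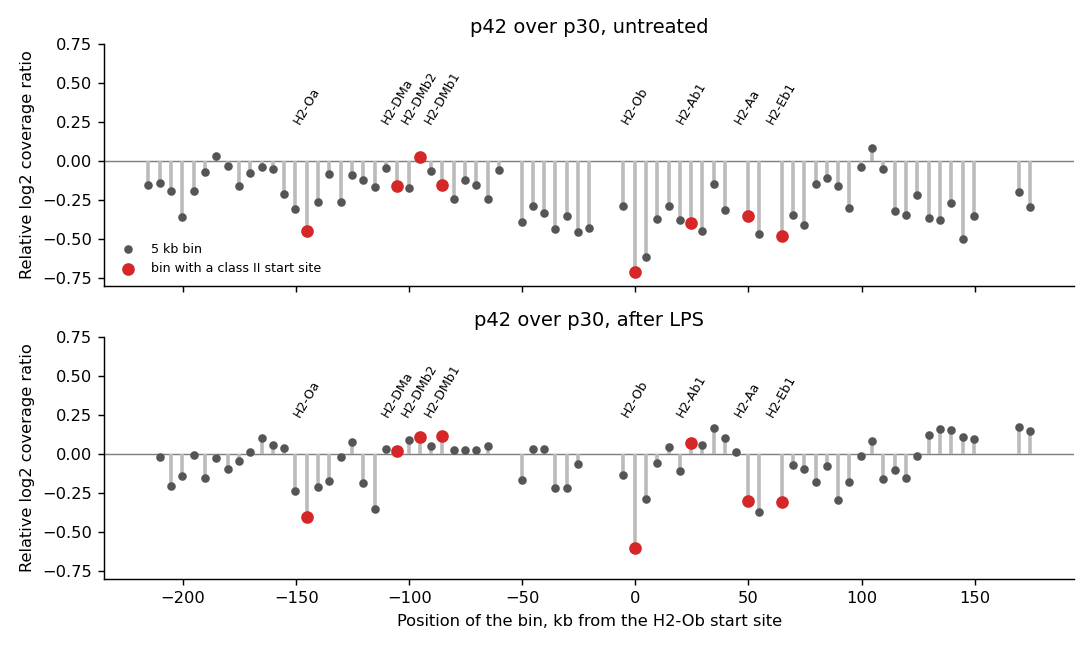
Relative log2 coverage ratio of p42 over p30 (vertical axis) in 5 kb bins by distance in kb from the H2-Ob start site (horizontal axis), in UT (top) and after LPS (bottom), with larger red points for bins that hold a class II start site. The H2-Ob bin is lowest in both panels, at −0.71 and −0.60.

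Other genes of the class II pathway were listed for comparison. A promoter loop was listed for 10 of 13 regulators, against 10513 of 21738 protein-coding genes. Ifngr2, a chain of the interferon gamma receptor, had 12, 19, 28 and 15 loops in p30 UT and LPS and in p42 UT and LPS, in that order, and Irf1, an interferon-induced factor, had 13, 12, 11 and 11. Rfx5, the DNA-binding subunit of RFX, had 1, 2, 6 and 3, and Nfya, a subunit of NF-Y, had 2, 6, 17 and 4. Rfxap, Irf8 and the ubiquitin ligase gene Marchf1 had none. No regulator with coverage in both lists passed a 1.5-fold difference in relative coverage in any of the 4 comparisons, and the median for p42 over p30 was 0.09 in UT and −0.17 after LPS.

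Of 7 genes of antigen processing and costimulation, 4 had a promoter loop in any list, against 10513 of 21738 protein-coding genes. Cd80, a costimulatory ligand, had 6, 9, 12 and 9 loops in p30 UT and LPS and in p42 UT and LPS, in that order, and Ifi30, a lysosomal thiol reductase gene, had 8, 13, 11 and 9. Ctss, the cathepsin gene for invariant chain cleavage, had 2, 6, 6 and 3. Lgmn, a lysosomal protease gene, had 1 loop in each list but p42 LPS and was 1.5-fold or more lower in p42 UT than in p30 UT (log2 −0.68). Of 9 genes of the class I path, 8 had a loop in any list, where Tap1 and Psmb9 share 1 bin and its loops. The neighbouring genes H2-Ea, H2-Eb2 and Brd2, which were not among the 10, had loops in all 4. H2-Ea had 9, 12, 16 and 5 loops and a relative coverage ratio of p42 over p30 of 0.08 in both treatments. In UT this was above each of the 8 genes on chromosome 17 that were among the 10.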

How the data were processed

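H3K27ac HiChIP was performed in 8 libraries, 2 per group, and the authors deposited 1 list of FitHiChIP interactions per group, with no file per replicate. Per the study's methods and the submitters' processing notes, reads were mapped to mm39 (GRCm39) with BWA-MEM 0.7.17, and duplicates were removed with pairtools. The deposited contact count is a whole number of ligation products per pair of 5 kb bins. The expected count was estimated by the authors' caller from distance and coverage. The contact probability, a fraction in the deposited lists, is that estimate over all modelled contacts, and q-values are as the authors' caller gave them. Deposited coverage is a signal in whole reads for each bin, and the coverage bias is the authors' ratio of it to the mean of peak or other bins. A flag for H3K27ac peaks comes with each bin. Because the caller models coverage and only significant pairs are listed, weak contacts are missing and a difference in enrichment can be partly removed.

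Loops were assigned to genes by the bin with the start of the Ensembl canonical transcript (GENCODE M39). Modelled contacts were the expected count divided by the probability. Coverage ratios were centred on the median over all start-site bins, and 1.5-fold was the mark for a call. Intervals are 95% Wilson, Clopper-Pearson or Poisson intervals and cover counting error only. The genes and gene lists were chosen with earlier results of these data known. Named were the 10 genes, genes of the comparison lists with a promoter loop in at least 1 list, partner genes whose start site lay in a partner bin of 2 or more lists, loops between the genes or in all 4 lists, and the loops of each gene with the most contacts or the largest ratio; the other genes and loops named were chosen after their values were seen. Calculations used Python 3.11.15, pandas 2.3.3 and numpy 2.4.6 and were tested on simulated data, and the H2-DMb copies were aligned with BLASTN 2.17.0. Alternatives were stricter q-values (0.001 and 1e-05), lists of equal size (78591 loops), at least 10 contacts, wider windows, start sites of all transcripts, bins shifted by 1 and other references for coverage and contacts; the reference of the class II region and the spacing of promoter letters were added after seeing the data.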

Additional observations from a re-analysis of the deposited data

Results flagged for a closer look

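As deposited, the lists gave class II loops opposite directions with LPS in the lines. Their number was higher after LPS in p30 (log2 0.13) and lower in p42 (log2 −1.17), a difference of 1.30. Contacts per modelled contact summed over the loops of each list gave 0.24 and −1.06, a difference of 1.30 that rests on sums over 66 and 72 loops in p30 and 97 and 43 in p42 and is no separate support. On the 23 loops in all 4 lists these contacts gave 0.09 in p30 and −0.39 in p42. The rise in p30 did not hold at q under 1e-05 (31 loops before and 24 after LPS) or in lists of equal size (63 and 61), where both lines had fewer loops after LPS. Of single genes, those with opposite directions in the lines are given, and others, such as H2-DMb1 and H2-Ob, are left out because they did not rise in p30. The numbers of loops differed between the lines by 3.64 at H2-Aa, 2.54 at H2-Eb1, 2.17 at H2-DMb2, 1.30 at H2-Oa and 0.43 at H2-DMa on the log2 scale. In lists of equal size H2-Eb1 had 3 loops before and 2 after LPS in both lines and H2-DMa had 15 in each list, so that they no longer differed between the lines. In p30 UT and LPS and p42 UT and LPS, H2-Aa then had 2, 5, 3 and 2 loops, H2-DMb2 4, 8, 8 and 6, and H2-Oa 13, 14, 15 and 9. Their directions stayed opposite, with smaller differences. All differences of single genes rest on 1 pooled list each and on as few as 2 loops, and were not tested. The lists as a whole moved the same way, by 1.18-fold after LPS in p30 and 0.497-fold in p42.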

How the results depend on the processing

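No paired analysis was possible because 1 list was deposited for both replicates of a group, so replicates were not left out. The lists hold no pair below significance, which limits all numbers of loops. Values below are in the order p30 UT, p30 LPS, p42 UT, p42 LPS where 4 are given, and the cause of a change was not tested unless the setting itself removes or adds loops. Of 124 values of the class II loops, contacts and coverage under other settings, 66 stayed close to those reported, which for a number of loops means within 1.5-fold, 51 moved further, 5 fell under the 1.5-fold mark and 2 passed it.

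At q under 0.001 the class II loops fell to 24 in p42 LPS, and those between the genes to 2 in p30 UT and 4 in p42 UT. At q under 1e-05 the loops numbered 31, 24, 48 and 12, those between the genes 2, 1, 3 and 1, and the median of observed over expected contacts 5.52 after LPS in p30, and 5.30 and 4.92 in p42. Cut to equal size, p42 UT had 59 loops, 3 between the genes and a median ratio of 5.18. With the neighbouring bins there were 134, 154, 198 and 90 loops, and 18, 29, 31 and 15 between the genes. With the start sites of all transcripts there were 148, 170, 206 and 109, and 19, 21, 21 and 11 between the genes.

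Shared loops, as a percentage of the loops of both lists, were 67.2% for the isoforms in UT at q under 0.001 and 68.4% at q under 1e-05, where they were 38.9% for the isoforms after LPS and 54.5% for LPS in p30. They were 67.2% for the isoforms in UT in lists of equal size. With bins shifted by 1 they were 79.1% and 77.4% for the isoforms in UT and after LPS, and 84.1% and 67.1% for LPS in p30 and p42. Contacts at loops in all 4 lists, relative to expected counts, had log2 ratios of −0.095 for the isoforms after LPS and −0.24 for LPS in p42.

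Relative to modelled contacts, the median coverage ratio of the 8 genes was −0.11 for the isoforms in UT, −0.59 for them after LPS, 0.11 for LPS in p30 and −0.39 for LPS in p42. That of H2-Ob was −0.45, −1.05, −0.22 and −0.82 in the same comparisons. Over 3 bins H2-Ob had −0.56 for the isoforms in UT and −0.42 after LPS. Relative to the region it had −0.49 and −0.52 for the isoforms and −0.31 for LPS in p30, where the median of the 8 genes was 0.017.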
